A study of Homo sapiens with 12 samples.

Results

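The response of MITF-depleted 624Mel cells to interferon gamma (IFNγ) was measured in 6 of the 12 RNA-seq libraries of the series. 624Mel is an established human melanoma cell line. In all 6 libraries the cells carried a transfected small interfering RNA against MITF, the gene of the transcription factor that drives the pigment cell programme; 3 libraries came from cells left without IFNγ (siMITF) and 3 from cells given IFNγ at 5 ng/mL for 24 h, starting 24 h after transfection (siMITF + IFNg). The other 6 libraries came from the same line with a control siRNA, without IFNγ (siCTRL) or with it (siCTRL + IFNg), 3 each. They serve as a reference for the effect of the MITF siRNA, enter the estimate of the spread, and show where the response differed. The knockdown is transient and the line is 1 line, so the libraries sample 1 genetic background. The study's methods call its replicates biological and independent, and the p-values measure the spread between such replicates of this line. The main fit does not use the replicate numbers, although same-numbered siMITF and siMITF + IFNg libraries deviated together.

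IFNγ binds a receptor of IFNGR1 and IFNGR2 chains, and the receptor's JAK kinases then phosphorylate STAT transcription factors. STAT dimers bind short GAS elements in promoters, and the IRF factors made early in the response act through ISRE elements. In melanoma the response is known for raising antigen presentation and the chemokines that attract T cells, and also for raising genes that restrain T cells.

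Levels are given as TPM, a read-based abundance scaled for transcript length and library total. Fold changes are differences of group means of log2(TPM + 1), so they understate the change of genes near 0 TPM. They come with a standard error (SE) and an adjusted p from limma. An ID was tested when its mean was at least 2 TPM in siMITF or in siMITF + IFNg, and was called raised or lowered at an adjusted p under 0.05 with a log2 fold change of at least 1 in size.

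MITF was at 36, 49.7 and 41.7 TPM in the siMITF libraries and at 37.5, 55 and 51.3 TPM in the siMITF + IFNg libraries, beside 187–229 TPM in siCTRL. All libraries with the MITF siRNA lay below all siCTRL libraries, and IFNγ made no detectable difference to MITF within them (log2 fold change 0.17 ± 0.18, limma adjusted p = 0.567). The 20 melanocytic markers summed to between 3302 and 3697 TPM in siMITF, between 2968 and 3654 TPM in siMITF + IFNg, and between 10351 and 11926 TPM in siCTRL. Of 16 markers of other cell types only KRT18 and LYZ reached 2 TPM in the siMITF groups, CD3E (a T cell marker) was listed at 0 in all 6 libraries, and the list summed to between 17.3 and 19.1 TPM in siMITF and between 16.6 and 17.5 TPM in siMITF + IFNg. Of 18 markers of undifferentiated and neural crest-like melanoma, 12 had means under 2 TPM in both groups. Among these, AXL, a receptor tyrosine kinase, was at 0.297–0.343 TPM in siMITF, and NGFR, the low-affinity nerve growth factor receptor, at 1.79, 2.15 and 1.95 TPM beside 0.112, 0.175 and 0.127 TPM in siCTRL. Pigment genes were thus reduced in sum and not lost. AXL was low with either siRNA but higher with the MITF siRNA, at 0.0894–0.129 TPM in siCTRL. Of the more abundant markers, TNC was at 25.3–29.1 TPM in siMITF beside 1.17–1.86 TPM in siCTRL. CCN1 was at 65.5–83.5 beside 12.4–16.4 TPM. RXRG differed less, at 29.6–31.6 beside 24.9–26 TPM, while NRG1 went the other way, with means of 0.386 and 0.809 TPM. These differences were not tested. The paper reports, from gene set enrichment, that MITF knockdown raised signatures of these states. The share of TPM from mitochondrial transcripts was 12.8%, 10.1% and 14.02% in siMITF replicates 1 to 3 and 16.9%, 12.7% and 16.1% in siMITF + IFNg replicates 1 to 3. Rescaling without these transcripts gave 383 raised and 27 lowered IDs in place of the 348 and 29 described next.

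IFNγ raised 348 of 12538 tested IDs in the MITF-depleted cells and lowered 29. These are 2.78% and 0.231% of the IDs tested. Raised IDs had a median log2 fold change of 1.99, and 57 of them rose by 4 or more on the log2 scale, whereas the lowered IDs had a median of -1.11. Together the raised IDs took between 4843 and 5229 TPM per siMITF library and between 31997 and 33252 TPM per siMITF + IFNg library. The libraries of the 2 groups did not overlap for 348 of 348 raised IDs and 28 of 29 lowered ones, a count that choosing IDs on these libraries largely fixes (40.7% of all IDs tested did not overlap). Of the raised IDs, 186 reached 2 TPM only with IFNγ and so could enter the test only by being higher there. Of the 12191 IDs already at 2 TPM in siMITF, 162 were raised, or 1.33%, and for the gene lists below the count among such members is given beside the count of all tested. Of all raised IDs, 53 passed 100 TPM with IFNγ. A gene symbol was found for 261 of the raised IDs. The other 87, which may include second copies of named genes, are counted but not described.

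**Figure D1:**
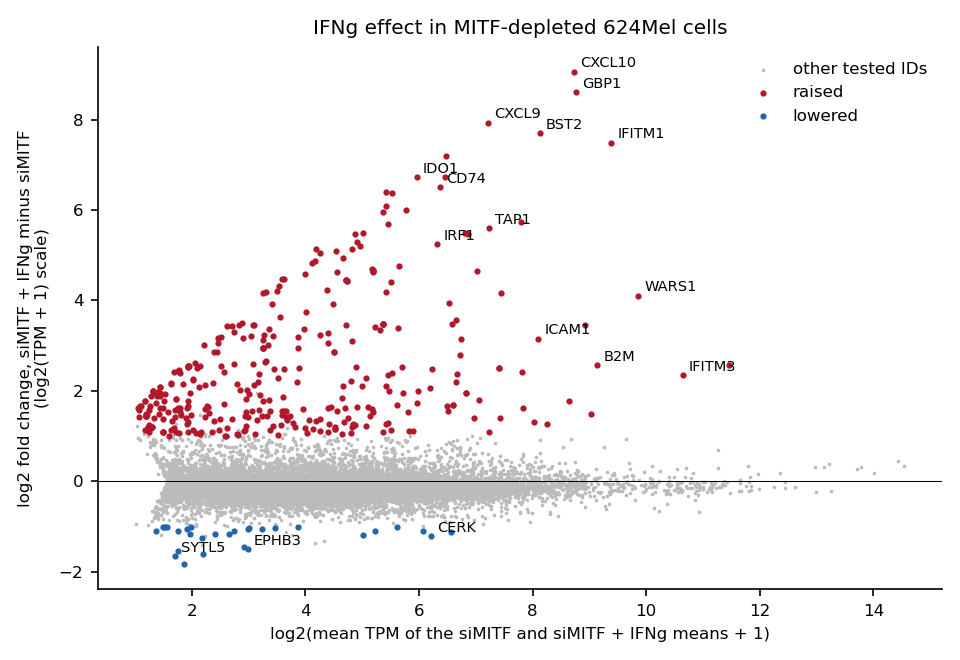
Each point is 1 tested ID, with its level in the MITF-depleted cells on the x axis (log2 of the mean TPM of both groups plus 1) and its log2 fold change with IFNγ on the y axis. The 348 raised IDs (red) reach 9.06 for CXCL10, while the 29 lowered IDs (blue) reach -1.84 for RNA5SP323.

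At any size of change, 1002 IDs were higher and 1552 lower at an adjusted p under 0.05, or 7.99% and 12.4% of those tested, and the median over all IDs was -0.10. The lower count was 3112 in the fit with the replicate number as a block and 936 and 1012 without siMITF replicate 1 and 3. Without siMITF replicate 2 the majority turned, with 867 IDs higher and 765 lower. Rescaling without mitochondrial transcripts gave 1443 higher and 1756 lower, with a median of -0.058. The count of raised IDs was 348 to 370 with any 1 library left out.

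The promoters of several of these genes carry the elements through which interferons are known to act, and the stretches that follow, chosen after the values were seen, are shown because they hold a motif and belong to genes with large or abundant rises. They are RefSeq promoter sequence of build GRCh38.p14, written 5′ to 3′ along the gene, and capitals mark the letters of the ISRE core searched here (GAAANNGAAA on either strand) or of the GAS motif (TTCNNNGAA, which reads the same on both strands), with overlapping ISRE cores run together.
CXCL10 (chr4:76023679-76023747, minus strand): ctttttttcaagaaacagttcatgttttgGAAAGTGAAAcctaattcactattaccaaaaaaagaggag
CXCL9 (chr4:76007641-76007710, minus strand): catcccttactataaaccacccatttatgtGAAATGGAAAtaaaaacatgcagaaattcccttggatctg
GBP1 (chr1:89065296-89065365, minus strand): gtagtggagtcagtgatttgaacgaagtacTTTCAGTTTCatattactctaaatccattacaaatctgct
IRF1 (chr5:132490859-132490927, minus strand): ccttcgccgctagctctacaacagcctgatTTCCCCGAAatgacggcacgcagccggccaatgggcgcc
ICAM1 (chr19:10271015-10271083, plus strand): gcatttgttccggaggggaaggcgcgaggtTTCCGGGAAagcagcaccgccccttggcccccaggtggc
B2M (chr15:44711343-44711418, plus strand): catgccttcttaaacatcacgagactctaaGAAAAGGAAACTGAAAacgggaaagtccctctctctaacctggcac
ISG15 (chr1:1013354-1013429, plus strand): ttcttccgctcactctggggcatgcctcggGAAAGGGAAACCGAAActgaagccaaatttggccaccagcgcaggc
IFITM1 (chr11:313970-314039, plus strand): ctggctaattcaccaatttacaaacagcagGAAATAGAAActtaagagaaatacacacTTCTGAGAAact
IFITM3 (chr11:320861-320942, minus strand): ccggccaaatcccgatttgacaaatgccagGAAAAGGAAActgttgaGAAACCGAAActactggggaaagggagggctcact

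The CXCL10, CXCL9, B2M, ISG15 and IFITM3 stretches hold the ISRE core, GBP1 holds it on the opposite strand, IRF1 and ICAM1 hold the GAS motif, and IFITM1 holds both. The windows of UBE2L6, CD74, GBP4, HLA-B and SYTL5, described further on, held neither. In the 250 bases before the start, the ISRE core was present in 18% of 289 promoters of raised genes, 2.4% of 13643 promoters of tested genes and 3.02% of all 35116 promoters in the table. The GAS motif was present in 13.1%, 5.42% and 6.57% of the same promoters. Among the 31 promoters of genes that rose by 4 or more on the log2 scale, the ISRE core was in 45.2% and the GAS motif in 32.3%. For the lowered genes 1 of 21 promoters held the ISRE core and 3 held the GAS motif. Promoters were found for 193 genes raised and 15 genes lowered, some with several starts, which can differ from the starts of the gene spans given later from GENCODE, and the shares are descriptions of letters, not of binding.

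Of the signalling genes, 2 STAT genes and 3 inhibitors rose. Of 9 genes of the receptor, JAK and STAT list, 2 rose, STAT2 and STAT3, and none fell, with a median log2 fold change of 0.09. STAT2, which pairs with IRF9 in the ISGF3 complex, was at 22.5, 23.7 and 19.2 TPM in siMITF and at 115, 129 and 137 TPM with IFNγ (2.49 ± 0.11 on the log2 scale, limma adjusted p = 3.08e-09). STAT3, the STAT of the interleukin-6 family, went from 43, 49.3 and 43.2 to 101, 150.1 and 157 TPM (1.55 ± 0.17, limma adjusted p = 3.83e-05). Both genes had IFNγ libraries wholly above the untreated ones. The receptor chain IFNGR1 was at 23.4–26.9 TPM without and 22.8–23.1 TPM with IFNγ, and JAK1 at 43.4–51.1 and 40.1–56.6 TPM, neither past the test. IFNGR2, the second chain, had a log2 fold change of -0.37 ± 0.18 with an adjusted p of 0.163, which became 0.0187 with the replicate block in limma, and TYK2 moved from 0.146 to 0.0421 in the same way at -0.25.

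Of 8 interferon regulatory and related factors tested, 5 rose, and 3 of the 6 that were at 2 TPM without IFNγ. IRF1, an early transcription factor of the response (chr5:132440440-132508719), was at 3.35, 2.87 and 3.01 TPM in siMITF and at 134, 170.2 and 162 TPM in siMITF + IFNg. The log2 fold change of IRF1 was 5.25 ± 0.12 (limma adjusted p = 4.67e-12). BATF2, a basic leucine zipper factor, went from 0.287, 0.257 and 0.343 to 73.4, 79.6 and 86.6 TPM (5.96 ± 0.09, limma adjusted p = 1.03e-13), so it began near 0 and ended below IRF1. IRF9 rose by 2.86 on the log2 scale, BATF3 by 1.93 and IRF4 by 1.6, and the IRF9 values were identical under 2 IDs. IRF4, a pigment cell and lymphoid factor, was at 1.07–1.69 TPM without and 5.63–6.38 TPM with IFNγ. IRF2, which competes with IRF1 for its sites, was past the test at 0.86 ± 0.10, under the size required. IRF8 was listed at 0 in all siMITF libraries and at 1.08, 1.92 and 1.51 TPM with IFNγ, below the level tested.

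Inhibitors of the pathway rose in 3 of 11 genes tested, and in 1 of the 9 at 2 TPM without IFNγ. SOCS1, which blocks JAK kinases, was at 1.49, 1.89 and 2.14 TPM without and 9.26, 11.4 and 11 TPM with IFNγ (2.03 ± 0.14, limma adjusted p = 3.32e-07). SOCS3 rose by 2.37 and USP18, which restrains type I interferon signalling, by 2.48. SOCS2 went the other way, from 42.4, 41.2 and 43.1 to 22.3, 22.1 and 26.7 TPM (-0.81 ± 0.10, limma adjusted p = 1.03e-04). CISH and PTPN2 were higher at smaller size (0.97 and 0.32). The call for PTPN2 was lost in 5 alternatives. The phosphatases PTPN1 and PTPN11 and the PIAS genes PIAS1 and PIAS3 were not past the test, although 5 genes of the list in place of 2 were lower with the replicate block.

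The ligands of the receptor CXCR3 rose from near 0. Of 13 chemokine and cytokine genes tested, 9 rose, and 3 of the 6 that were at 2 TPM without IFNγ. CXCL10 (ENSG00000169245, chr4:76021118-76023497), a ligand of CXCR3, a chemokine receptor of activated T cells, was at 0.58, 0.481 and 0.612 TPM in the siMITF libraries and at 1047, 748 and 729 TPM in the siMITF + IFNg libraries. Its log2 fold change of 9.06 ± 0.12 was the largest among all IDs tested (limma adjusted p = 5.21e-14). The other CXCR3 ligands lie beside it, CXCL9 at chr4:76001275-76007509 and CXCL11 at chr4:76033682-76041415. CXCL9 went from 0.21, 0.258 and 0.164 to 332, 288 and 268 TPM (7.93 ± 0.12, limma adjusted p = 1.03e-13), and CXCL11 from 0.231, 0.151 and 0.168 to 38.5, 35.1 and 28.4 TPM (4.88 ± 0.15, limma adjusted p = 5.63e-11). All 3 were under 1 TPM in every siMITF library.

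CCL2, which attracts monocytes, was already expressed and rose from 45.9, 45.8 and 35.9 to 158, 134 and 118 TPM (1.66 ± 0.14, limma adjusted p = 3.19e-06). CCL8 rose from near 0 to 6.87–7.81 TPM (3.02). IL32 rose by 3.2 on the log2 scale and IL18BP, a soluble inhibitor of interleukin-18, by 2.2. TNFSF13B, the B cell survival factor BAFF, was at 3.92, 3.14 and 3.33 TPM without and 86.1, 75.4 and 79.9 TPM with IFNγ (4.19 ± 0.11, limma adjusted p = 1.40e-11). TNFSF10, the death ligand TRAIL, rose by 1.57, to 1.77–3.56 TPM. The neutrophil chemokines of the list were not raised: CXCL8 was at 37.8, 40.2 and 33.7 TPM without and 24.5, 25 and 18.6 TPM with IFNγ, lower by 0.70 on the log2 scale (limma adjusted p = 0.0444), and CXCL1 was lower by 0.46 (adjusted p = 0.0354). Neither decrease reached the size required, and each was no longer past the test in 10 alternatives, among them the fits without any 1 siMITF replicate for CXCL8. CXCL2 was at 1.91, 1.85 and 1.43 TPM without and 2.17, 3.81 and 1.91 TPM with IFNγ, where the groups met at 1.91 TPM, and was not past the test (0.38, limma adjusted p = 0.241) but had 0.0435 with the replicate block.

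**Figure D2:**
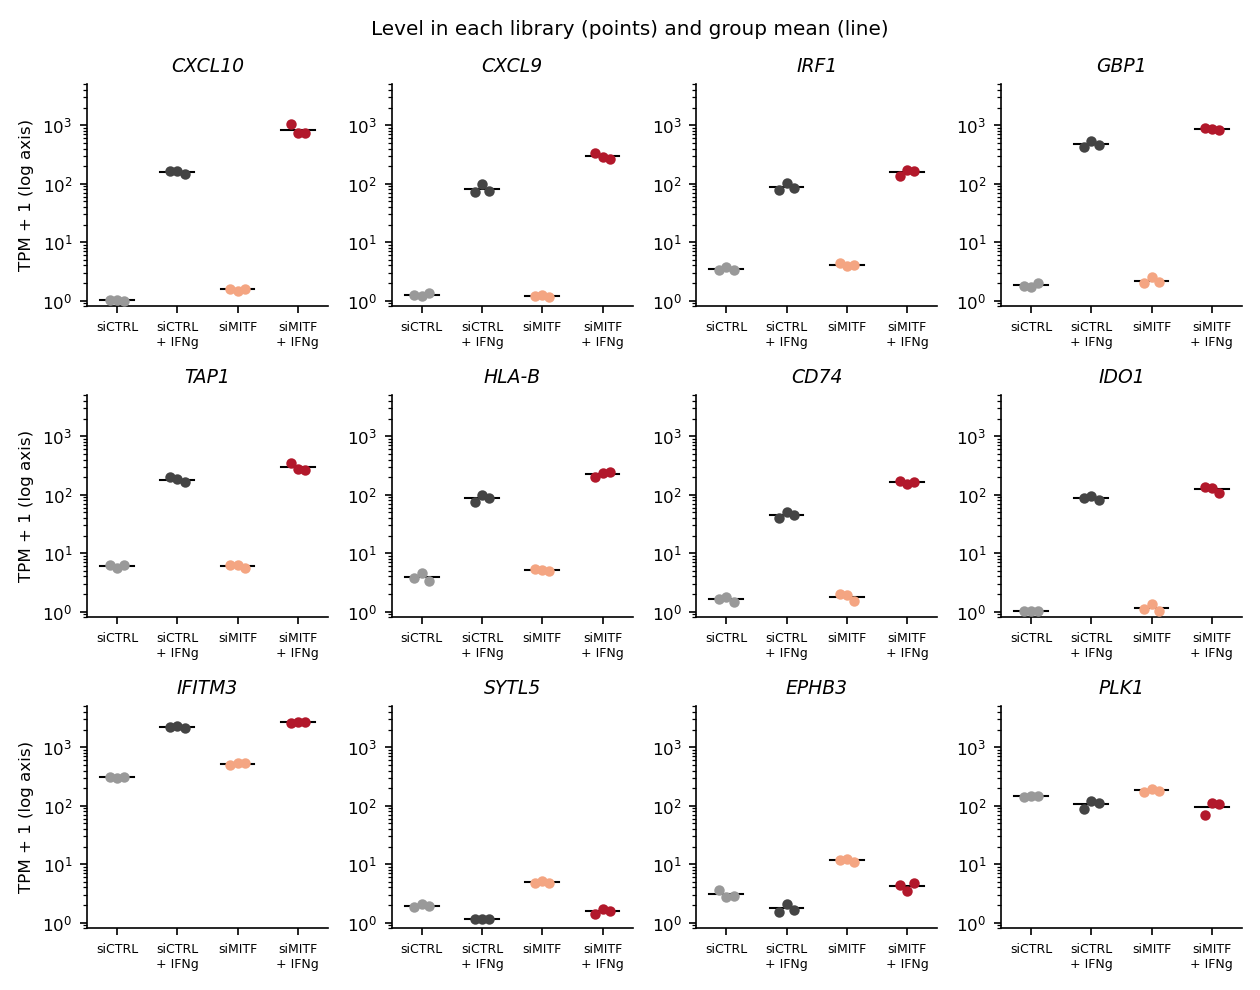
Each panel shows 1 gene, with the 4 groups on the x axis and TPM + 1 on a logarithmic y axis; points are the 3 libraries of a group and the line is their mean. With the MITF siRNA, CXCL10, CXCL9, GBP1 and IDO1 start near 0 TPM and rise to over 100 TPM, whereas SYTL5, EPHB3 and PLK1 fall.

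Genes of antigen presentation by MHC class I rose nearly throughout. Of 20 genes tested, 17 rose and none fell. Of the 14 that were at 2 TPM without IFNγ, 11 rose, with a median of 1.82. Among the heavy chains, HLA-B went from 4.45, 4.07 and 3.9 to 204, 232 and 246 TPM (5.47 ± 0.13, limma adjusted p = 5.21e-12). HLA-C, higher before IFNγ at 48.5–50.9 TPM, rose by 2.52 on the log2 scale, HLA-E by 3.48 and HLA-F by 3.38, and HLA-G was under 0.01 TPM in all 6 libraries. Sequence similarity between these genes, and the second copies noted above, leave the split of reads among them uncertain.

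B2M, the shared light chain, went from 166, 173 and 147 to 1058, 959 and 872 TPM (2.56 ± 0.11, limma adjusted p = 1.35e-09). The peptide transporter gene TAP1 was at 5.32, 5.19 and 4.66 TPM without and 345, 274 and 262 TPM with IFNγ (5.6 ± 0.11, limma adjusted p = 1.18e-12), and its partner TAP2 rose by 2.36. NLRC5, the transactivator of class I genes, rose from 1.82, 1.65 and 1.48 to 53.4, 77.4 and 76 TPM (4.71 ± 0.17, limma adjusted p = 3.26e-10). The immunoproteasome genes PSMB9, PSMB8 and PSMB10 rose by 4.63, 3.02 and 1.7 on the log2 scale, and the proteasome activator genes PSME1 and PSME2, each with identical values under 2 IDs, by 1.95 and 1.68. The peptide trimming genes ERAP1 and ERAP2 rose by 1.62 and 1.08. The general chaperones were different: PDIA3 was not past the test (0.10 ± 0.11), CALR was past it at 0.34 ± 0.09 (limma adjusted p = 0.0176, lost in 5 alternatives), and CANX was at 28.1, 52.1 and 38 TPM without and 4.37, 48.1 and 40.7 TPM with IFNγ. Replicate 1 with IFNγ was as low for CANX with the control siRNA, at 4.93 TPM beside 56.3 and 48.9 TPM.

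Of 18 genes of class II presentation, 9 could be tested and 6 rose, 4 of which reached 2 TPM only with IFNγ. CIITA, the transactivator of class II genes, was at 0.608, 0.359 and 0.536 TPM without and 10.8, 13.7 and 12.9 TPM with IFNγ (3.16 ± 0.16, limma adjusted p = 8.39e-09). CD74, the invariant chain, went from 0.987, 0.932 and 0.513 to 168, 152 and 168 TPM (6.5 ± 0.13, limma adjusted p = 1.11e-12). The lysosomal genes CTSS and IFI30 rose by 3.27 and 4.16, and IFI30 reached 319.5–351 TPM. HLA-DMB and HLA-DPA1 rose by 2.17 and 1.77, to 3.76–4.69 and 2.4–2.55 TPM under the IDs that carry these symbols. HLA-DRA was listed at 0 in all 3 siMITF + IFNg libraries, and HLA-DRB1 and HLA-DQB1 at 0 in all 12 libraries, which cannot be told apart from reads assigned to another copy of these genes. The RFX genes, which bind class II promoters in many cell types, were expressed and not past the test.

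Of 12 tested genes from a list of checkpoint and tryptophan genes, 7 rose, and 5 of the 10 that were at 2 TPM without IFNγ, where the median was 0.98. Only some of the 7 are known to restrain T cells or to break down tryptophan. CD274, which encodes the inhibitory ligand PD-L1, was at 0.636, 0.508 and 0.618 TPM without and 15.8, 11.4 and 14.3 TPM with IFNγ (3.21 ± 0.15, limma adjusted p = 5.41e-09), and the groups did not overlap. IDO1, the first enzyme of tryptophan breakdown, was at 0.12, 0.346 and 0.0157 TPM without and 133, 128 and 106 TPM with IFNγ (6.74 ± 0.12, limma adjusted p = 6.25e-13). WARS1, which charges tRNA with tryptophan and does not degrade it, was abundant before IFNγ and rose from 94, 111 and 96.3 to 1517, 1849 and 1886 TPM (4.11 ± 0.12, limma adjusted p = 4.23e-11). The butyrophilins BTN3A1, BTN3A2 and BTN3A3, a family known for activating gamma delta T cells, rose by 1.35, 1.26 and 1.77, and TNFRSF14, the receptor HVEM, by 1.16. CD47, the signal that inhibits phagocytosis, was past the test at 0.81 ± 0.08 (limma adjusted p = 1.24e-05), under the size required. CD276, an inhibitory ligand, was not past the test (-0.31, limma adjusted p = 0.0568) but had 0.00607 with the replicate block. TDO2, another tryptophan-degrading enzyme, was at 7.13–9.59 TPM without and 7.7–10.1 TPM with IFNγ. PDCD1LG2, a ligand of the PD-1 receptor, was under 0.05 TPM in all 6 libraries.

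The guanylate-binding proteins, GTPases that attack pathogen membranes, rose in 5 of 5 tested, of which 4 reached 2 TPM only with IFNγ and so entered only by being high there. GBP1 (chr1:89051882-89065360) went from 1.04, 1.5 and 1.09 to 889.8, 870.2 and 828 TPM (8.62 ± 0.10, limma adjusted p = 2.60e-14). GBP5 reached 171–179 TPM from 0.179–0.277 TPM (7.19), GBP2 rose by 5.5, GBP3 by 5.13 and GBP4 by 3.92. GBP6 and GBP7 stayed below the level tested.

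Of 52 antiviral interferon-stimulated genes tested, 47 rose and none fell. Of the 32 that were at 2 TPM without IFNγ, 28 rose, with a median of 2.37. BST2, the virus-retaining protein tetherin, was at 1.36, 1.73 and 1.91 TPM without and 516, 569 and 583 TPM with IFNγ (7.71 ± 0.10, limma adjusted p = 5.21e-14). IFITM1, which blocks virus entry, went from 7.0, 5.38 and 6.92 to 1386, 1295 and 1312 TPM (7.49 ± 0.14, limma adjusted p = 9.94e-13), and IFITM3 from 501, 535 and 539.6 to 2579, 2689 and 2762 TPM (2.35 ± 0.06, limma adjusted p = 9.01e-12), the highest level in the list. UBE2L6, the conjugating enzyme for ISG15, rose by 6.73, to 157–182 TPM, and ISG15 itself by 4.66, to 239.7–269 TPM. IFI27 rose by 5.99, IFIT3 by 3.94, OAS2 by 4.21 and TRIM22 by 5.09. Members known as type I interferon targets were mostly raised, among them IFIT1, OAS1 and IFI6 by 2.17, 3.46 and 3.45, but MX1 and HERC5 were not. MX1 was at 5.23, 5.54 and 5.45 TPM without and 3.59, 4.27 and 4.81 TPM with IFNγ (-0.30 ± 0.12, limma adjusted p = 0.0996, and 0.0496 with the replicate block), and HERC5 at 4.47–5.35 and 5.53–5.82 TPM. MX2, TRIM5 and STING1 were past the test at 0.67, 0.92 and 0.83, under the size required, and the call for MX2 was lost in 8 alternatives.

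Complement genes rose in 8 of 11 tested. These 8 reached 2 TPM only with IFNγ and so entered only by being high there, and of the 3 at 2 TPM without IFNγ none rose. SERPING1, the C1 inhibitor, was listed at 0, 0 and 0.00645 TPM in the siMITF libraries and was at 88.5, 77.7 and 86 TPM with IFNγ (6.41 ± 0.10, limma adjusted p = 1.03e-13). C1R, C1S, C2 and C3, components of the cascade, rose by 3.45, 3.92, 4.82 and 3.31, and C4B and C4A by 6.08 and 5.5, though these 2 are near-identical copies whose reads may be split. A2M, the protease inhibitor alpha-2-macroglobulin and a relative of C3 and C4, stood outside the lists and was among the 20 largest rises, from 7.02, 7.97 and 6.67 to 365, 454 and 488 TPM (5.72 ± 0.15, limma adjusted p = 1.45e-11). The membrane regulators were high before IFNγ and changed less: CD59 was past the test at 0.76 ± 0.10 (limma adjusted p = 1.04e-04) and CD46 at 0.50 ± 0.10. Among the adhesion genes, ICAM1, the ligand of a lymphocyte integrin, went from 53.1, 57.2 and 52.2 to 431, 522 and 522 TPM (3.15 ± 0.12, limma adjusted p = 5.17e-10), and TLR3 and IL15RA rose by 2.12 and 1.65, 3 of 5 tested, and 1 of the 3 at 2 TPM without IFNγ.

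Of 17 cell death genes tested, 7 rose, and 2 of the 12 that were at 2 TPM without IFNγ, where the median was 0.30. Of the 7, 5 were apolipoprotein L genes, which lie on 1 stretch of chromosome 22. APOL4 went from 0.841, 0.658 and 0.486 to 75.7, 92.4 and 86.8 TPM (5.69 ± 0.13, limma adjusted p = 4.55e-12), APOL6 rose by 5.47, APOL1 by 5.29, APOL3 by 4.48 and APOL2 by 2.53. The inflammatory caspases CASP1 and CASP4 rose by 2.41 and 1.4. CASP8, the caspase of the death receptors, was past the test at 0.54 ± 0.10 (limma adjusted p = 0.00263), while CFLAR and BCL2L1 were not past it. RIPK1 (0.25) had an adjusted p of 0.209 in limma and of 0.0454 with the replicate block.

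**Figure D3:**
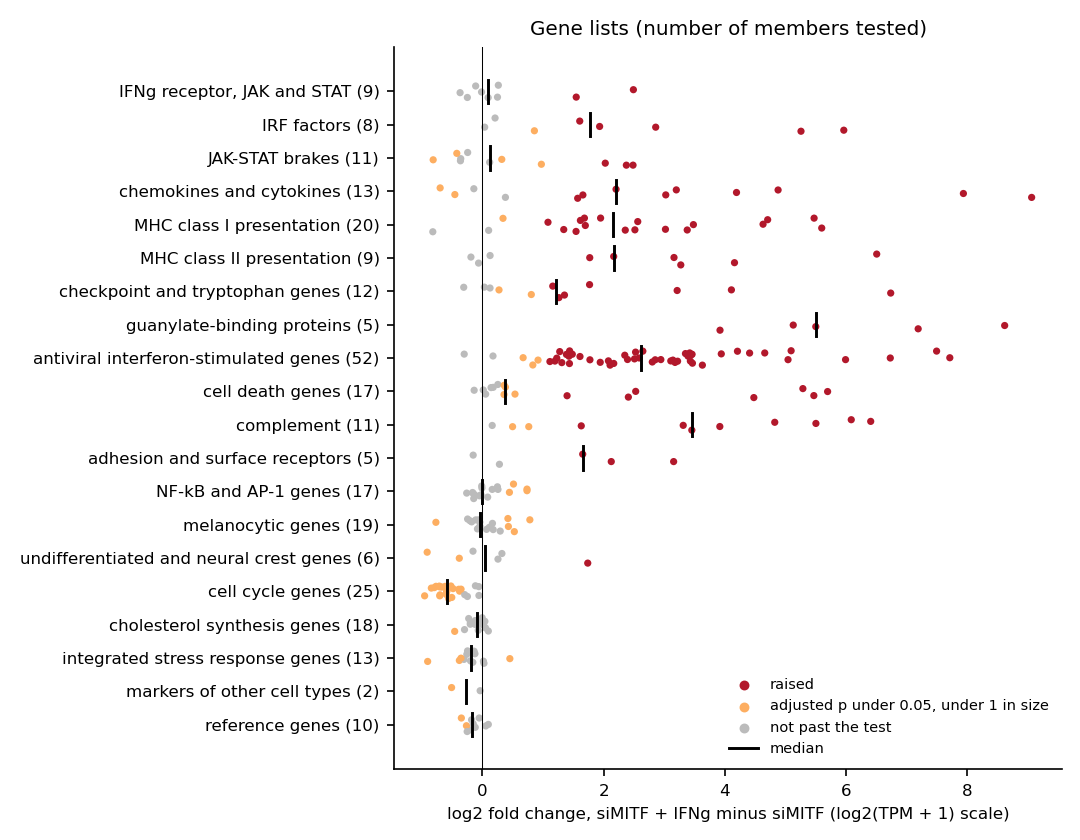
Each point is 1 tested gene of the list named on the y axis, placed by its log2 fold change with IFNγ in MITF-depleted cells on the x axis, and the black bar is the list's median. The guanylate-binding proteins, 4 of the 5 tested only through their level with IFNγ, lie furthest right by median (5.50), CXCL10 reaches 9.06, and the cell cycle genes lie between -0.95 and -0.06.

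NF-kB and AP-1 genes gave 0 raised of 17 tested and a median of -0.01. FOS, BCL3, FOSL2 and TNFAIP3 were past the test at 0.73, 0.73, 0.51 and 0.45, 4 of 17 beside 7.99% of all IDs. The call was lost in 13 alternatives for TNFAIP3 and in 7 for FOSL2, and with the replicate block 6 genes were higher and 1 lower. RELA, NFKB1 and NFKBIA, the core of the pathway, were not past the test (limma adjusted p = 0.65, 0.398 and 0.246). None of 19 melanocytic genes was raised or lowered by the size required, and the median was -0.04. Those higher at smaller size were 4, RAB27A (0.78 ± 0.07), MLANA (0.53 ± 0.09), CAPN3 (0.43 ± 0.07) and TYR (0.42 ± 0.08), and SLC45A2, a melanosomal transporter, was lower, at 416, 457 and 433 TPM without and 199.8, 286 and 289.7 TPM with IFNγ (-0.77 ± 0.14, limma adjusted p = 0.00164). With the replicate block 6 were higher and 2 lower. MLANA, the Melan-A antigen, stood at 16.4, 19.1 and 16 TPM without and 24.2, 23.1 and 28.2 TPM with IFNγ, beside 442–501 TPM in siCTRL, so the increase left it far below the control siRNA level. PMEL and TYRP1 were at 987–1174 and 803–871 TPM without IFNγ and at 842–1164 and 723–866 TPM with it.

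Of the 6 undifferentiated and neural crest genes tested, TNC, the matrix protein tenascin C, rose from 25.3, 28.6 and 29.1 to 76.7, 103 and 106 TPM (1.74 ± 0.18, limma adjusted p = 1.57e-05). RXRG, a marker of neural crest-like melanoma cells, was lower, at 29.6, 31.6 and 31.6 TPM without and 13.8, 16.9 and 17.4 TPM with IFNγ (-0.91 ± 0.09, limma adjusted p = 1.52e-05), and NES was lower by 0.38, a call lost in 2 alternatives. CCN1 and CCN2 were not past the test, although 3 genes of the list in place of 1 were higher with the replicate block, CCN1 among them (limma adjusted p = 0.00437, log2 fold change 0.32).

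Genes of the cell cycle moved down together by less than the size required. Of 25 tested, 20 were lower at an adjusted p under 0.05, beside 12.4% of all IDs, 0 were higher, and the median log2 fold change was -0.59 against -0.10 over all IDs. PLK1, a mitotic kinase, was at 174, 194 and 180.2 TPM in siMITF and at 69.2, 112 and 106 TPM with IFNγ (-0.95 ± 0.16, limma adjusted p = 0.00111). TYMS, which makes thymidylate for DNA synthesis, went from 134, 140.0 and 138 to 73.2, 78.9 and 76.3 TPM (-0.84 ± 0.07, limma adjusted p = 2.92e-06), and CCNB2, a mitotic cyclin, from 105, 115 and 106 to 59.2, 65 and 62.4 TPM (-0.79 ± 0.07, limma adjusted p = 5.21e-06). For these 3 genes the groups did not overlap. TOP2A was lower by 0.77, MCM2 by 0.71, MKI67 by 0.70 and MYC by 0.39, with the calls of MKI67 and MCM2 lost in 4 and 3 alternatives, while CCND1 and CCNE2 were not past the test. CCNA2 varied widely, with 26.1, 2.3 and 1.95 TPM in the siMITF + IFNg libraries. A lower share of cycling cells and less RNA per cell cannot be told apart in bulk libraries.

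Cholesterol synthesis genes changed little, with 1 of 18 lower (MVD, -0.46 ± 0.11) or 2 with the replicate block, and integrated stress response genes gave 3 lower and 1 higher of 13, beside 12.4% and 7.99% of all IDs. PHGDH, the first enzyme of serine synthesis, was at 290.0, 364 and 319 TPM without and 158, 182 and 178 TPM with IFNγ (-0.90 ± 0.12, limma adjusted p = 2.43e-04), and ATF4, the transcription factor of this response, was lower by 0.38. Of 10 reference genes HPRT1 and RPLP0 were lower, by 0.35 and 0.26, with the RPLP0 call lost in 9 alternatives, and 5 were lower with the replicate block.

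The lowered IDs included 22 with a symbol and libraries that did not overlap. SYTL5, a synaptotagmin-like Rab effector, was at 3.79, 4.23 and 3.81 TPM in siMITF and at 0.423, 0.682 and 0.609 TPM in siMITF + IFNg (-1.66 ± 0.11, limma adjusted p = 1.54e-07). EPHB3, an ephrin receptor, went from 10.7, 11.4 and 9.87 to 3.36, 2.42 and 3.74 TPM (-1.49 ± 0.16, limma adjusted p = 2.32e-05), and CERK, ceramide kinase, from 95.2, 108 and 102 to 34, 49 and 48.8 TPM (-1.21 ± 0.15, limma adjusted p = 1.24e-04). In each of the 3 the treated libraries lay wholly below the untreated ones. The transcription factors SNAI1, GLI2 and MXD3 were lowered by 1.11, 1.09 and 1.06 on the log2 scale, with the GLI2 call lost in 4 alternatives, and SNAI1, a repressor known from epithelial-mesenchymal transition, went from 8.57, 8.41 and 7.38 to 2.62, 3.31 and 3.85 TPM. LOXL3 and MMP15, enzymes of the extracellular matrix, fell by 1.16 and 1.09, and MMP15 went from 46.8, 51.3 and 51.1 to 17.5, 25.4 and 26.5 TPM. CENPM, PIMREG and CNTRL, with roles in division, fell by 1.01, 1.19 and 1.02.

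The other lowered genes were BTBD7 (-1.25), PEX5L (-1.17), ERVMER34-1 (-1.12), NT5DC2 (-1.11), RAB7B (-1.05), CAPS (-1.03), LCTL (-1.02) and ARHGAP33 (-1.02), with 3 pseudogenes, RNA5SP323 (-1.84), EGFEM1P (-1.1) and TUBA5P (-1.06). RNA5SP323 varied most, with 3.82, 8.43 and 2.02 TPM untreated, and its call was lost in 7 alternatives. H3C3, a histone gene named after its values were seen, was the 1 lowered ID whose libraries overlapped, at 3.82, 3.25 and 1.63 TPM without and 1.93, 0.308 and 0.72 TPM with IFNγ (-1.01, limma adjusted p = 0.0431). Of the 29 lowered IDs, 13 were under 2 TPM with IFNγ. A higher mean in siMITF than in siCTRL was found for 26 of the 29, and the share over all IDs was not computed. Means in siCTRL were 0.46 TPM for LOXL3 and 0.49 TPM for PEX5L, beside 6.32 and 7.71 TPM in siMITF. At levels under 1 TPM the pseudocount compresses the control estimates.

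**Figure D4:**
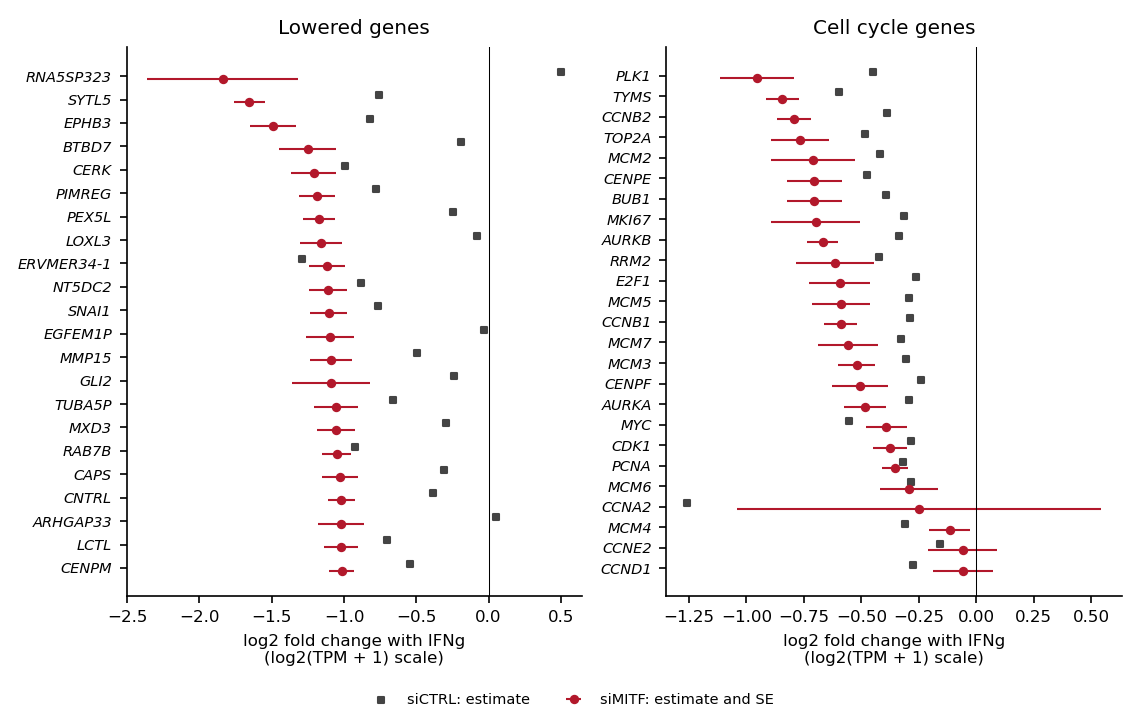
Log2 fold change with IFNγ on the x axis for the 22 lowered genes (left) and the 25 cell cycle genes tested (right); red points are the estimate in MITF-depleted cells with its SE, and grey squares the estimate with the control siRNA. Lowered genes lie between -1.84 and -1.01 in MITF-depleted cells, and the cell cycle genes between -0.95 and -0.06.

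The response was then set against that of cells with the control siRNA, using the difference of the 2 log2 fold changes (siMITF minus siCTRL). At an adjusted p under 0.05 the difference was positive for 86 IDs and negative for 24, or 0.686% and 0.191% of those tested, and 48 and 5 of these were at least 1 in size. The unadjusted p was under 0.05 for 926 IDs. Of the 348 raised IDs, 70 had a positive difference past the test and 3 a negative one, and of the 29 lowered IDs 4 had a negative one. Raised IDs were chosen for their size in MITF-depleted cells, and 53 of the 70 reached 2 TPM there only with IFNγ, both of which favour positive differences. Requiring 2 TPM in a group other than siMITF + IFNg left 57 positive IDs. The positive count was 50, 55 and 53 without siMITF replicate 3, siCTRL replicate 3 and siCTRL + IFNg replicate 3. The negative count was 14, 12 and 13 without siMITF replicate 1, 2 and 3, 12 without siCTRL replicate 1 or 3, and 15 and 13 without siCTRL + IFNg replicate 2 and 3.

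CXCL9 and CXCL10 ended higher in the treated MITF-depleted libraries than in the treated control ones. CXCL9 was at 332, 288 and 268 TPM with the MITF siRNA and IFNγ and at 70.7, 97.4 and 75.3 TPM with the control siRNA and IFNγ. The untreated libraries were at 0.164–0.258 and 0.219–0.343 TPM, and the difference of log2 fold changes was 1.93 ± 0.17 (limma adjusted p = 2.18e-04). CXCL10 reached 1047, 748 and 729 TPM with the MITF siRNA and 165, 167 and 144 TPM with the control siRNA (1.78 ± 0.18, limma adjusted p = 3.58e-04). Untreated CXCL10 was also higher with the MITF siRNA, at 0.58, 0.481 and 0.612 TPM beside 0.0414, 0.0294 and 0 TPM, and with a pseudocount of 0.1 the difference of fold changes was -0.03. CXCL11 had a difference of 1.07 ± 0.21 (limma adjusted p = 0.0352), lost in 15 alternatives. IL32 had a difference of 1.45 ± 0.14 (limma adjusted p = 3.58e-04), with 24.5–26.5 TPM beside 4.07–5.09 TPM in the treated libraries.

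In class II, 4 of 9 genes tested had a positive difference past the test and 0 a negative one, beside 0.686% and 0.191% of all IDs. The list's median difference was 0.05. These 4 were under 2 TPM in siMITF and met the filter only through siMITF + IFNg, where they were high. None of the 5 at 2 TPM in siMITF had a difference past the test. CD74 was at 168, 152 and 168 TPM with IFNγ and the MITF siRNA and at 39.4, 50.7 and 43.4 TPM with IFNγ and the control siRNA, from under 1 TPM in both cases (1.71 ± 0.18, limma adjusted p = 4.61e-04). HLA-DMB and HLA-DPA1 had differences of 1.54 ± 0.19 and 1.21 ± 0.14 (limma adjusted p = 0.00105 and 8.25e-04), and CIITA one of 1.08 ± 0.22 (limma adjusted p = 0.0453), lost in 15 of 25 alternatives. HLA-DMB and HLA-DPA1 reached 2 TPM in no group other than siMITF + IFNg, so they could be tested only through the group in which they were high. CTSS and IFI30, strongly raised with both siRNAs, had differences of -0.01 and -0.07, and RFXANK one of -0.18, none past the test. In class I, 3 of 20 genes had a positive difference, HLA-B (1.0 ± 0.18), HLA-F (1.34 ± 0.26) and PSMB10 (0.81 ± 0.13), and 0 a negative one, with the call lost in 9 alternatives for HLA-B and 13 for HLA-F. HLA-F, at a mean of 1.785 TPM in siMITF, also met the filter only through siMITF + IFNg. GBP4 rose to 18.4–20.0 TPM beside 4.85–5.74 TPM (1.71 ± 0.14, limma adjusted p = 1.01e-04), and PLEKHS1, a pleckstrin homology domain gene, to 4.68–4.87 beside 0.155–0.401 TPM (2.06 ± 0.15, limma adjusted p = 7.35e-05). PHF24 ended at 3.01–3.46 beside 0.364–0.456 TPM (1.61 ± 0.17, limma adjusted p = 4.88e-04), and CD274 at 11.4–15.8 beside 8.46–9.85 TPM (1.22 ± 0.21, limma adjusted p = 0.0177, lost in 7 alternatives). Untreated CD274 was lower with the MITF siRNA, at 0.508–0.636 TPM beside 1.04–1.99 TPM, so its difference holds a lower start as well as a higher end. PLEKHS1 and PHF24 also reached 2 TPM in siMITF + IFNg alone, and drop out where 2 TPM is required in another group.

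For some genes the fold changes differed while the treated level stayed lower with the MITF siRNA. ATOH8, a basic helix-loop-helix transcription factor, was at 0.692, 0.971 and 1.27 TPM in siMITF and 12.6, 12.8 and 12.6 TPM in siCTRL. With IFNγ it stood at 14.6, 17 and 16.7 TPM and 35.7, 41.3 and 37.2 TPM, so the MITF-depleted libraries were lower before and after IFNγ while the fold changes differed by 1.6 ± 0.16 (limma adjusted p = 3.58e-04). TNFRSF14 was at 12.4–13.6 TPM and rose to 25.8–34.9 TPM with the MITF siRNA, against 69.4–72.4 and 77.7–87.6 TPM with the control siRNA (0.96 ± 0.14, limma adjusted p = 0.00567). CAPN3, a melanocytic gene, moved in opposite directions. It rose from 40.1–47.5 to 55.8–62.5 TPM in MITF-depleted cells and went from 478–506 to 320.5–329 TPM with the control siRNA, where the log2 fold change was -0.58 (1.01 ± 0.10, limma adjusted p = 3.75e-04).

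Smaller rises in MITF-depleted cells were found for IFITM3 (-0.51 ± 0.08, limma adjusted p = 0.0101), TMEM86A (-0.86 ± 0.18) and CA11 (-0.62 ± 0.12), with the call lost in 2, 16 and 12 alternatives. IFITM3 still ended higher with the MITF siRNA, at 2579–2762 TPM beside 2126–2349.8 TPM. CHAC1, a glutathione-degrading enzyme of the stress response, was at 4.58, 5.52 and 3.83 TPM without and 6.58, 6.76 and 6.65 TPM with IFNγ in MITF-depleted cells. With the control siRNA it went from 6.78, 8.2 and 6.25 to 30.5, 32.8 and 30.8 TPM, and the fold changes differed by -1.56 ± 0.17 (limma adjusted p = 5.55e-04). Among the lowered genes, LOXL3 (-1.07 ± 0.20, limma adjusted p = 0.027), PEX5L (-0.93 ± 0.15) and SYTL5 (-0.90 ± 0.15) had negative differences on the log2(TPM + 1) scale, with the call lost in 14, 3 and 5 alternatives. SYTL5 also fell with the control siRNA, from 0.821–1.12 to 0.147–0.162 TPM, levels that the pseudocount compresses. With a pseudocount of 0.1 the differences of LOXL3, PEX5L and SYTL5 were not past the test (limma adjusted p = 0.217, 0.584 and 0.815). LOXL3 was at 0.454–0.466 TPM in siCTRL and 0.295–0.501 TPM in siCTRL + IFNg.

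**Figure D5:**
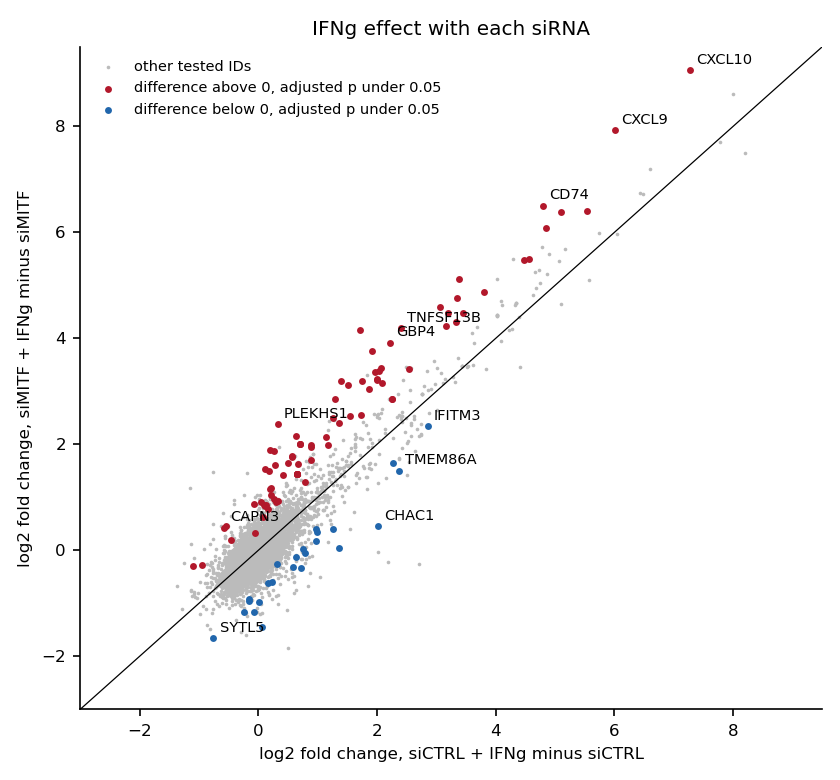
Log2 fold change with IFNγ in cells with the control siRNA (x axis) against that in MITF-depleted cells (y axis), both on the log2(TPM + 1) scale, for each tested ID. The 86 IDs in red lie above the diagonal of equal change and the 24 in blue below it; the largest named differences are 2.06 for PLEKHS1, at 2 TPM in siMITF + IFNg alone, and -1.56 for CHAC1.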

How the data were processed

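RNA-seq of 624Mel cells gave 12 libraries, 3 per group, of which the 6 with the MITF siRNA carry the main comparison. Per the labels and methods, reads were trimmed with Trimmomatic 0.39 and quantified by pseudoalignment (kallisto, build GRCh38), and the deposited values are TPM made by the authors, 1 value per Ensembl gene ID and library. How transcripts were combined, and from which Ensembl release, is not given in the sources used here. TPM keeps no depth, so no counting interval or detection floor could be given. Listed values summed to between 975336 and 982632 per library.

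Symbols, biotypes and gene coordinates came from GENCODE v44 (GRCh38), by ID without version, and 1045 tested IDs had no symbol. Values were transformed as log2(TPM + 1), with a filter of a mean of at least 2 TPM in siMITF or siMITF + IFNg, which left 12538 IDs. All 12 libraries entered 1 fit in limma 3.58.1 (R 4.3.3) with 1 coefficient per group and trended moderation, and p was adjusted by Benjamini-Hochberg over all IDs tested, for the IFNγ effect and for its difference between siRNAs separately. With 3 libraries against 3, an exact two-sided permutation test of a single gene cannot give less than 0.1, so none was used. The scripts were tested on simulated data.

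Same-numbered siMITF and siMITF + IFNg libraries deviated together (correlations of 0.452, 0.211 and 0.183), so the numbers pair these samples, as read from the data, and the fit with a replicate block is given where it changes a call of the IFNγ effect. Genes named are all lowered IDs with a symbol and no overlap, the 20 largest rises, the 8 largest differences per direction, and members of 20 gene lists. The members and lists were chosen with earlier results of these data known. Some genes are not reported here and stand only in counts over all IDs. Promoters were read from RefSeq (GRCh38.p14) and searched 250 bases before the start. Alternatives covered normalization, pseudocount, filter, thresholds, block, and each library left out.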

Additional observations from a re-analysis of the deposited data

Results flagged for a closer look

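The IFNγ effect of 37 named genes differed between the siRNAs, with an adjusted p under 0.05 for the difference (siMITF minus siCTRL, on the log2(TPM + 1) scale) in limma. Groups of 3 libraries were not tested for single libraries that stand apart.

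Positive differences among chemokine, cytokine and surface receptor genes were 1.93 for CXCL9, 1.79 for TNFSF13B, 1.78 for CXCL10, 1.45 for IL32, 1.15 for IL15RA, 1.07 for CXCL11, 1.22 for CD274 and 0.96 for TNFRSF14. In antigen presentation they were 1.71 for CD74, 1.54 for HLA-DMB, 1.34 for HLA-F, 1.21 for HLA-DPA1, 1.08 for CIITA, 1.00 for HLA-B and 0.81 for PSMB10. In complement they were 1.23 for C4B and 0.87 for SERPING1, and among cell death genes 1.05 for CASP1, 1.03 for APOL3 and 0.99 for APOL2. Further positive differences were 2.06 for PLEKHS1, 1.61 for PHF24, 1.60 for ATOH8, 1.71 for GBP4, 0.93 for GBP2, 0.88 for PARP9, 0.78 for ISG20 and 0.61 for IRF9. The melanocytic genes CAPN3 and RAB27A, a melanosome transport GTPase, had 1.01 and 0.62.

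Negative differences were -1.56 for CHAC1, -1.07 for LOXL3, -0.93 for PEX5L, -0.90 for SYTL5, -0.86 for TMEM86A, -0.62 for CA11 and -0.51 for IFITM3.

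RAB27A was at 26.8–29.7 TPM without and 48–51.6 TPM with IFNγ in MITF-depleted cells, and at 109–119 and 118–134 TPM with the control siRNA. ISG20 was likewise lower with the MITF siRNA before and after IFNγ, with means of 18.04 and 50.31 TPM beside 99.2 and 156.3 TPM. IRF9 began lower, at a mean of 4.506 beside 7.927 TPM, and did not end higher, at 38.93 beside 41.24 TPM. SERPING1 ended at 77.7–88.5 TPM beside 40.6–50.6 TPM, and APOL3 at 21.6–22.5 TPM beside 9.67–11.6 TPM, from under 0.2 TPM in the untreated libraries of both siRNAs. For C4B the reads may be split with C4A, whose own difference was not past the test (1.21, limma adjusted p = 0.131). CASP1 and IL15RA, like HLA-DMB, HLA-DPA1, PLEKHS1 and PHF24, reached 2 TPM in siMITF + IFNg alone. The call of the difference was lost in 14 alternatives for GBP2 and in 13 for IRF9.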

How the results depend on the processing

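The number of raised IDs stayed within 1.5 times of 348 in all alternatives run. With any 1 library left out it was 348 to 370, the lowered 20 to 39, those higher at any size 777 to 1114 and lower 765 to 1994, the positive differences between siRNAs 50 to 92 and the negative 12 to 27, and those of at least 1 in size 34 to 56 and 3 to 7. Lowered IDs numbered 15 with a mean of at least 5 TPM, 56 and 44 with pseudocounts of 0.1 and 0.5, and 68 after quantile normalization, where IDs higher and lower at any size were 1532 and 2468. IDs lower at any size were 2354 after centring and 659 at an adjusted p under 0.01. Positive and negative differences were 170 and 73 after centring, 231 and 68 after quantile normalization, 158 and 50 (8 at -1 or below) without mitochondrial genes, 46 and 7 at an adjusted p under 0.01, and 51 and 14 (28 and 3 of at least 1 in size) with a mean of at least 5 TPM. With 2 TPM required in a group other than siMITF + IFNg there were 57 positive IDs and 10 at -1 or below. Without a filter 39 were negative, 8 of them at -1 or below. With a pseudocount of 0.1 there were 49 positive IDs and 10 at -1 or below, and the CXCL10 difference reversed to -0.03. A 1.5-fold limit gave 83 and 21 in place of 48 and 5, and 31 of at least 1 had a symbol, an alternative chosen after seeing the data. The causes were not tested.

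The replicate block gave 3112 IDs lower at any size and moved the IFNγ counts of raised, lowered and higher IDs by less than 1.5 times. Beside the results given with it in the text, it changed no IFNγ call of a gene named there. For the difference between siRNAs the lowest same-number correlation was 0.095, just under the limit of 0.1 used here. The block is therefore given there only as an alternative. Over all pairs of groups the median correlation was 0.289 for same numbers and -0.202 for different ones. The block gave 170 positive and 93 negative IDs, 13 of these at -1 or below. Among the positive differences it brought past the test were C4A (1.21, limma adjusted p = 0.00233 in place of 0.131), TAP1 (0.70, 0.00859) and B2M (0.55, 0.0209). A positive difference past the test was found for 5 of 5 guanylate-binding proteins in place of 2. The same held for 6 of 12 checkpoint and tryptophan genes in place of 2. Among 52 antiviral genes, 7 positive and 3 negative differences stood in place of 2 and 1. Negative differences past the test only with the block included CCL2 (-0.87, limma adjusted p = 0.011), OAS1 (-0.95, 0.0275) and CXCL1 (-0.81, 0.0239). Mean CCL2 went from 42.55 to 136.5 TPM with the MITF siRNA and from 1.77 to 15.05 TPM with the control siRNA. Correlations were best with the own number in every other group for 12 of 12 libraries. Effects of 206 named genes kept direction and call in 5192 of 5322 refits. Their differences did so in 723 of 873, and those of TMEM86A, CIITA, CXCL11, GBP2 and LOXL3 lost the call most often. Depth is unknown, and a level under 1 TPM is compressed by the pseudocount.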

Other observations

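Of the raised IDs with a symbol, 136 lay outside the gene lists, and those that follow were chosen after their values were seen. HAPLN3, a link protein of the extracellular matrix, was at 0.681, 0.582 and 0.58 TPM in siMITF and at 45.1, 67 and 66.4 TPM in siMITF + IFNg (5.21 ± 0.17, limma adjusted p = 8.22e-11). NNMT, which methylates nicotinamide, went from 0.134, 0.0904 and 0.0628 to 24.9, 19.9 and 18.2 TPM (4.32 ± 0.14, limma adjusted p = 1.15e-10). LGMN, a lysosomal protease, rose from 29.9–33.3 to 159–182 TPM (2.37), and LAP3, an aminopeptidase, from 67.8–71.8 to 333–409 TPM (2.43). SLC15A3, a peptide and histidine transporter of endolysosomes, rose by 3.05 on the log2 scale, and MVP, the major vault protein, by 2.29, to 45.3–61 TPM. For each of these the libraries with IFNγ lay wholly above those without.

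Secreted and surface proteins also rose outside the lists. SPP1, osteopontin, was at 27.3, 30.1 and 24.1 TPM without and 127, 119 and 103 TPM with IFNγ (2.06 ± 0.10, limma adjusted p = 1.15e-08). CEACAM1, an adhesion molecule that can inhibit lymphocytes, went from 24.2, 26.2 and 22.7 to 93.8, 102 and 103 TPM (1.99 ± 0.08, limma adjusted p = 1.72e-09). SEMA3F, a repulsive guidance cue, and CHRD, the BMP antagonist chordin, rose by 3.23 and 3.36, to 13.3–18.2 and 14.7–21.4 TPM. IFNAR2, a chain of the type I interferon receptor, rose by 1.08 from 16.4–17.5 to 34.2–39.9 TPM. BCL6, a transcription factor known from germinal centre B cells, rose by 1.62.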
